A study of Rattus norvegicus with 8 samples.

Results

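The 14-3-3 proteins are encoded in rat by a small family of Ywha genes. The 6 members described here were chosen by gene symbol and were Ywhab (beta), Ywhae (epsilon), Ywhag (gamma), Ywhah (eta), Ywhaq (theta) and Ywhaz (zeta). Their transcripts ended at 42 of the 98356 alternative polyadenylation (APA) sites in the data, and they were 6 of 18003 gene symbols. Together they held 97390 of 20734916 reads on sites, or 0.470%. Sfn, which encodes the sigma form, was not among the gene symbols of the data.

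14-3-3 proteins form dimers that bind partner proteins at phosphorylated serine or threonine motifs. Binding can hold a partner in the cytoplasm, cover or expose a second site on it, or keep an enzyme in an active or inactive shape. They are abundant in brain, and the Ywha symbols come from their description as activators of tyrosine and tryptophan hydroxylases, the enzymes that start dopamine and serotonin synthesis.

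Hypothalamic RNA came from adult male Long-Evans rats, with 4 libraries per group, each taken as 1 rat of a larger cohort. Cannabis rats breathed vapor from whole plant matter for 10 min, whereas air control rats had the same session without plant matter. All rats had fed freely before the session, had no food afterwards, and were killed 1 hr after exposure. The titles number the controls 1, 2, 3 and 4 and the cannabis rats 1, 2, 3 and 5. The RNA was bulk tissue, described as mediobasal hypothalamus in the series' design.

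The libraries were made by WTTS-Seq (whole transcriptome termini site sequencing), which is designed to start each read at a polyadenylated 3′ end. A read is taken here as marking a transcript end, so levels of different genes are compared without a correction for length. The sequence at the sites was not read. Reads primed at A-rich stretches inside a transcript were therefore not told apart from true ends, at intronic and extended exonic sites as elsewhere. The library protocol includes PCR and names no molecular tags, so reads can be copies of the same molecule. The deposited value is a normalized count, the reads on a site divided by the size factor of the library, and 1 read was worth 0.664 to 1.99 normalized counts. A gene total is the sum over the sites with that symbol, and a share is a site's percentage of its gene total. Sites are numbered within a gene by their mean normalized count over the 8 libraries. Differences are cannabis minus air control on the log2(normalized count + 1) scale from a limma fit over all sites or all genes, a scale that understates changes of low sites. A site, share or total was called at an unadjusted P under 0.01.

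Libraries had 1159811 to 3399252 reads on sites in the air control group and 1919709 to 3706778 in the cannabis group. Reads on sites without a gene symbol took 13.7% to 16.1% of air control libraries and 12.1% to 15.004% of cannabis libraries. All 8 hypothalamic neuropeptide markers on the list (Avp, Oxt, Pmch, Hcrt, Agrp, Trh, Ghrh and Sst) were present. Their summed normalized count was 3118 to 5489 in the controls and 7253 to 9264 in the cannabis rats, without overlap. Genes with more reads weigh more in this sum, so it does not show a difference of each of the 8. By direction alone, 8 of the 8 were higher in the cannabis rats. Of these 8 totals 2 were called in limma, those of the vasopressin and oxytocin genes Avp and Oxt, beside 0.278% of all gene totals. The study also named Avp and Oxt from these libraries, so their calls are no independent evidence of direction. The summed endothelial markers, 3 of 5 present, did not overlap either, at 81.1 to 88.0 in the controls and 93.0 to 115 in the cannabis rats. Of all single gene totals, 1.98% had groups that did not overlap. The pituitary list, 3 of 5 present with Gh1 and Prl absent from the symbols, summed to 122 to 821 and 196 to 702. The 3 present choroid plexus markers of 4 summed to 0 to 22.7 and 9.93 to 36.5. Astrocyte, oligodendrocyte and microglia sums, each from 5 of 5 markers, overlapped between the groups. By direction alone, 2, 1 and 2 of their markers were higher in the cannabis rats, and 0 of the 5 neuron markers were. The part of these marker levels in the results below was not tested.

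The 12 sites described singly held 98.1% of the reads of the 6 genes. Their positions are given in the Rnor_6.0 build, with the location class that the study assigned. Distal means at a transcript end, exonic within an exon, extended exonic across an exon and at least part of the following intron, and intronic within an intron.

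Ywhaz, whose protein binds Raf kinases and tyrosine hydroxylase among many partners, ended at 11 sites, of which 4 are described singly. On the minus strand of chromosome 7, site 1 was exonic at chr7:75574008-75574085 and held 60.0% of the gene. Site 2, also exonic, lay 916 nt upstream at chr7:75574928-75574989 with 14.8%. Site 3 was distal, 510 nt downstream of site 1 at chr7:75573528-75573590, with 13.2%. Site 4 was intronic, 22648 nt upstream of site 1 at chr7:75596692-75596699, with 11.1%. The intronic site is therefore far from the cluster of the other 3, and a transcript that ends there lacks the exons downstream of that intron.

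Ywhae, whose protein binds the Ndel1 protein of the neuronal migration machinery, ended at 7 sites on the plus strand of chromosome 10. Its distal site 1 at chr10:63921671-63922144 held 81.3%, and its extended exonic site 2, 13040 nt upstream at chr10:63908661-63908970, held 17.6%. Ywhag, whose protein is abundant in brain and muscle and binds protein kinase C, had 4 sites and nearly a single end, the distal site 1 at chr12:23817855-23818338 on the plus strand with 99.6%. Ywhah, whose protein binds the glucocorticoid receptor, had 5 sites, and its exonic site 1 at chr14:83053035-83053096 on the minus strand held 95.8%. Ywhaq, which encodes a form also found in T cells, had 6 sites on the minus strand of chromosome 6, with 65.5% at the exonic site 1, chr6:43463880-43463916, and 29.1% at the distal site 2, 606 nt downstream at chr6:43463275-43463321. Ywhab, whose protein also binds Raf kinases, had 9 sites on the plus strand of chromosome 3, with 91.4% at the distal site 1, chr3:160399777-160400154. Its extended exonic site 4, 4494 nt upstream at chr3:160395237-160395345, held 1.43%. Distances are between the peak positions of the sites.

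None of the 6 gene totals was called, against a background of 0.278% of all 18003 totals, and none had groups that did not overlap, against 1.98% of all totals. The Ywhaz total was 3907, 3537, 3296 and 6907 normalized counts in air control 1 to 4 and 5418, 3798, 3105 and 4228 in cannabis 1, 2, 3 and 5. It averaged 4412 ± 1682 in the controls and 4137 ± 971 in the cannabis rats (mean ± SD, n = 4 per group), a log2 difference of -0.06 ± 0.26 (SE; exact permutation test, two-sided P = 0.857). Air control 4, the library with the fewest reads on sites, stood above the other 7 libraries, and the groups overlapped. In bulk RNA, fewer cells of a type and less RNA per cell cannot be told apart.

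The Ywhag total was 2314, 2095, 3538 and 2220 normalized counts in the controls and 3180, 3086, 1912 and 3204 in the cannabis rats. Here 3 cannabis libraries and air control 3 were high and cannabis 3 was lowest, and the log2 difference was 0.16 ± 0.24 (exact permutation P = 0.486). The Ywhae total was 2191, 1446, 1697 and 2826 in the controls and 2659, 1391, 1585 and 2113 in the cannabis rats, with a log2 difference of -0.07 ± 0.26 (exact permutation P = 0.743). Its highest libraries were air control 4 and cannabis 1, the same libraries that were highest for Ywhaz.

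The Ywhaq total was 866, 996, 973 and 687 normalized counts in the controls and 723, 1376, 997 and 694 in the cannabis rats. It was lowest in air control 4, and the log2 difference was 0.06 ± 0.24 (exact permutation P = 0.714). The Ywhab total was 846, 879.9, 701 and 773 in the controls and 621, 782, 1012 and 965 in the cannabis rats, a log2 difference of 0.06 ± 0.20 (exact permutation P = 0.714). The control values of Ywhab lay within those of the cannabis rats, whose spread was larger, with an SD of 179 against 79.7. The Ywhah total was 681, 466, 424 and 628 in the controls and 468, 499, 336 and 907 in the cannabis rats, a log2 difference of -0.06 ± 0.28 (exact permutation P = 0.943).

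The 95% intervals of the limma differences of the totals ran from -0.63 to 0.51 for Ywhaz, -0.35 to 0.68 for Ywhag, -0.64 to 0.49 for Ywhae, -0.45 to 0.58 for Ywhaq, -0.38 to 0.50 for Ywhab and -0.67 to 0.55 for Ywhah. As ratios of cannabis to air control they reached down to 0.629 and up to 1.60. These ends bound the changes that the libraries leave possible, and are not the smallest change that could have been called. The signs of the 6 differences depended on the libraries or the covariate used, and are not read as directions. Adjusted over all genes, limma's Benjamini-Hochberg P was 0.999 for each total. The 6 totals added up to 11224 ± 1976 normalized counts in the controls and 11264 ± 1776 in the cannabis rats (mean ± SD, n = 4 per group).

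**Figure D1:**
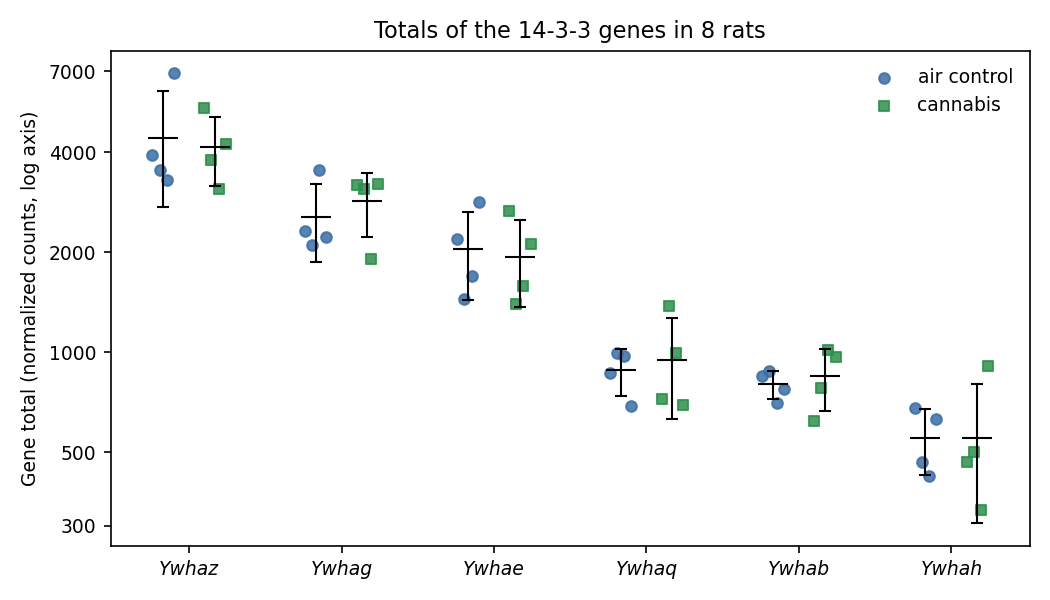
Gene totals of the 6 14-3-3 genes in normalized counts (vertical log axis), with 1 point per rat, circles for air control and squares for cannabis. Horizontal bars are group means and error bars are SD (n = 4 per group). The groups overlap in every gene, and air control 4 is the highest Ywhaz point at 6907.

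The order of the totals was Ywhaz, Ywhag, Ywhae, Ywhaq, Ywhab and Ywhah, at ranks 25, 54, 84, 257, 296 and 534 of the 18003 genes by mean total. Neighbours in this order were compared within libraries by an exact permutation test of signs, two-sided, over 5 pairs, whose smallest P is 0.0078. Ywhaz exceeded Ywhag in 7 of 8 libraries, by 0.65 on the log2 scale (exact P = 0.0156, adjusted P = 0.0260). Ywhae exceeded Ywhaq in 8 of 8 by 1.11, and Ywhab exceeded Ywhah in 8 of 8 by 0.62 (exact P = 0.0078 and adjusted P = 0.0195 for each). Ywhag exceeded Ywhae in 7 of 8 by 0.45 (exact P = 0.0469), which did not hold after adjustment (P = 0.0586). Ywhaq and Ywhab, 0.13 apart and in order in 5 of 8 libraries, did not differ beyond their spread (exact P = 0.359). The RefSeq gene table for the GRCr8 build names 9 pseudogenes of these genes, 5 of Ywhaq, 2 of Ywhaz and 1 each of Ywhag and Ywhah. No pseudogene symbol was among the 6 Ywha symbols of the data, so how reads were split between near-identical copies is uncertain.

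Of the 42 sites, 2 were called, Ywhaz site 4 and Ywhab site 4, both lower in the cannabis rats. The study also named the Ywhab site from these libraries, so its call here is no independent evidence of its direction. Over all 98356 sites, 0.381% were called, and 0.258% were called lower. Both had an adjusted P of 1.00 in limma after Benjamini-Hochberg adjustment over all sites, and no site of the family had groups that did not overlap, against 2% of all sites. The median difference of the 42 sites was -0.08 on the log2 scale, beside 0.01 for all sites. None of the 42 shares was called, against 0.342% of the 26629 shares tested, and none had groups that did not overlap, against 1.89%.

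The intronic Ywhaz site 4 had 657, 327, 250.4 and 1545 normalized counts in air control 1 to 4 and 607, 124, 204 and 73.0 in cannabis 1, 2, 3 and 5. It averaged 695 ± 594 in the controls and 252 ± 243 in the cannabis rats (mean ± SD, n = 4 per group; exact permutation P = 0.114). On the log2 scale it was lower in the cannabis rats by -1.55 ± 0.52 in limma (95% interval -2.64 to -0.46, unadjusted P = 0.00762). Cannabis 1 lay close to air control 1, while the other 3 cannabis libraries lay below all controls. The range over the 8 libraries was 21.2-fold, compared with 2.06-fold for site 1 of the same gene.

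As a share of the Ywhaz total, the intronic site took 16.8%, 9.24%, 7.60% and 22.4% in the controls and 11.2%, 3.27%, 6.56% and 1.73% in the cannabis rats. The share was 14.01% ± 6.87 in the controls and 5.69% ± 4.19 in the cannabis rats, a log2 difference of -1.49 ± 0.53 that was not called (limma P = 0.0187, exact permutation P = 0.114). The share of site 1 went the other way, from 55.5% ± 4.80 to 65.3% ± 7.62, and was not called either (limma P = 0.0186, exact permutation P = 0.0857). Without the intronic site, the Ywhaz total was 3717 ± 1100 in the controls and 3885 ± 805 in the cannabis rats (exact permutation P = 0.743), a sum computed after the data had been seen.

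The remaining Ywhaz sites were nearer to each other in both groups. Site 1 had 2027, 2042, 2016 and 3531 normalized counts in the controls and 3469.7, 2623, 1714 and 3079 in the cannabis rats, with 3 controls close together and air control 4 far above them. Site 2 had 751, 591, 655 and 745 in the controls and 549, 549, 648 and 558 in the cannabis rats, and cannabis 3 was the single library that overlapped the controls (log2 difference -0.25 ± 0.22, limma P = 0.281, exact permutation P = 0.0571). Site 3 had 402, 532, 345 and 1060.5 in the controls and 758, 464, 490.0 and 475 in the cannabis rats (log2 difference 0.02 ± 0.31, exact permutation P = 0.971).

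**Figure D2:**
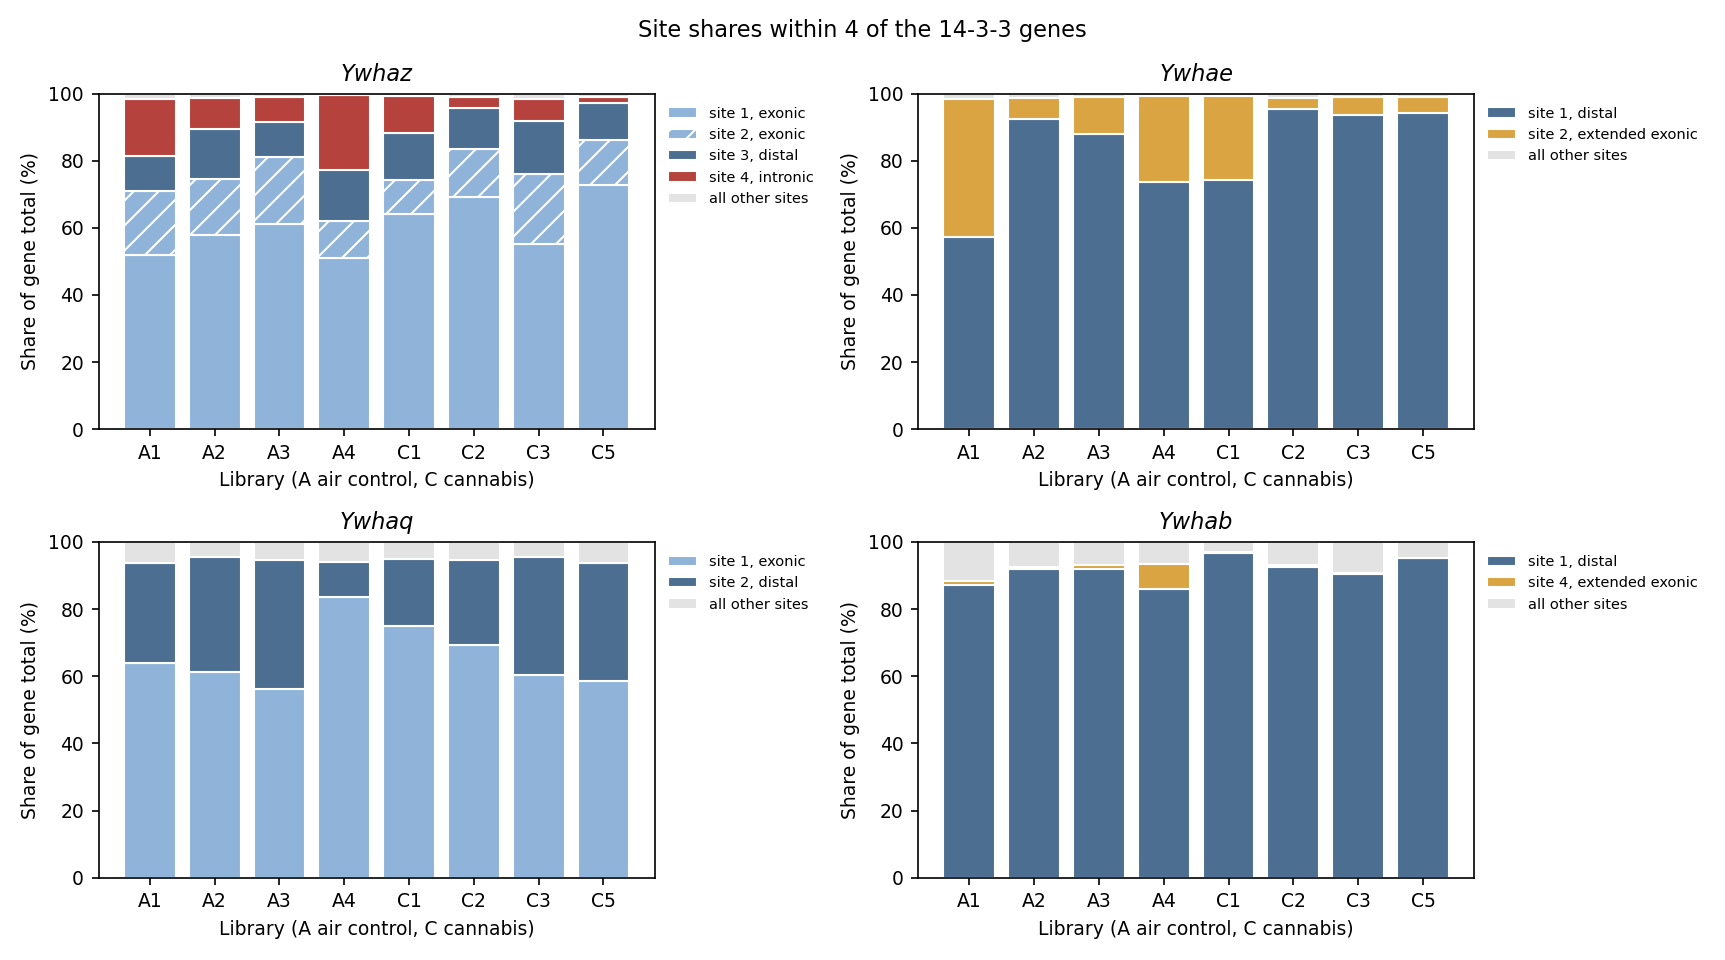
Shares of the sites within Ywhaz, Ywhae, Ywhaq and Ywhab in percent of the gene total (vertical axis), 1 bar per library, A for air control and C for cannabis. Colors mark the location class and grey the remaining sites. The intronic Ywhaz share is largest in A4 at 22.4% and smallest in C5 at 1.73%.

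Ywhae showed an uneven site of the same kind without reaching the call. Its extended exonic site 2 had 899.9, 91.0, 185 and 729 normalized counts in the controls and 667, 43.2, 85.6 and 105.99 in the cannabis rats, a 20.8-fold range. Air control 1, air control 4 and cannabis 1 were high and the other 5 libraries low, with a log2 difference of -1.34 ± 0.67 (95% interval -2.72 to 0.04, limma P = 0.0572, exact permutation P = 0.229). Its share was 41.1%, 6.29%, 10.9% and 25.8% in the controls and 25.1%, 3.10%, 5.40% and 5.02% in the cannabis rats (limma P = 0.0949, exact permutation P = 0.171). For the count, the limma P fell under 0.01 without air control 2, where the difference was -1.95, and without cannabis 1, where it was -2.13. The distal Ywhae site 1 had 1254, 1336, 1495 and 2077 in the controls and 1976, 1327, 1484 and 1988 in the cannabis rats, with a log2 difference of 0.14 ± 0.21 (exact permutation P = 0.600). With site 2 left out, which was decided after the data had been seen, the Ywhae total was 1564 ± 367 in the controls and 1712 ± 338 in the cannabis rats (exact permutation P = 0.686).

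The 3 libraries that were highest for Ywhaz site 4 and Ywhae site 2, as counts and as shares, were also the 3 with the largest percentage of reads on sites without a gene symbol. That percentage was 16.1% in air control 4, 15.4% in air control 1, 15.004% in cannabis 1, 14.7% in air control 2, 14.4% in cannabis 3, 13.7% in air control 3, 12.6% in cannabis 2 and 12.1% in cannabis 5. The intronic Ywhaz share followed the same order of libraries, except that air control 3 and cannabis 3 changed places. The summed neuron markers, 5 of 5 present, were also highest in these 3 libraries, at 2324 in air control 4, 2193 in cannabis 1 and 2117 in air control 1, and lay between 1234 and 1912 in the other 5.

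The percentage of reads without a symbol was also used as a covariate in limma, an alternative chosen after the data had been seen. With it, the count of the Ywhaz intronic site differed by -0.18 and that of Ywhae site 2 by -0.02. Their shares differed by -0.38 and -0.22, and none of these differences was called. The 5 libraries with less than 15% of such reads, 2 controls and 3 cannabis rats, were also chosen after the data had been seen, and they leave out the 3 libraries that were highest for both sites, so their values are given as a description. In them the count of the Ywhaz intronic site differed by -1.21 and that of Ywhae site 2 by -0.82 in limma. Their shares differed by -1.32 and -0.91. The covariate was itself lower in the cannabis group, at 13.5% ± 1.42 against 14.97% ± 1.02 (SD, n = 4 per group), so with 8 libraries the group and the percentage can be told apart only in part. The part of the neuron marker level was not tested.

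**Figure D3:**
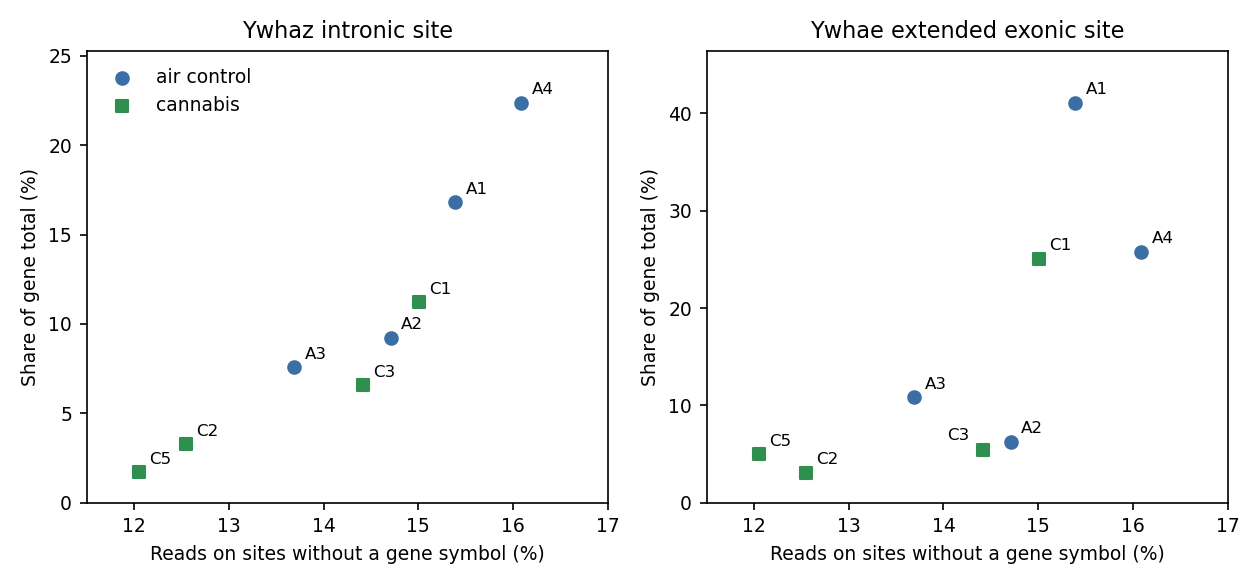
Share of the gene total in percent (vertical axes) of the intronic Ywhaz site and the extended exonic Ywhae site, against the percentage of a library's reads on sites without a gene symbol (horizontal axes), 1 labelled point per library. Air control 4 (A4), air control 1 (A1) and cannabis 1 (C1) sit at the upper right of both panels, with 15.004% to 16.1% of reads without a symbol.

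The call of Ywhaz site 4 depended on single libraries. It was lost when any of 5 libraries was left out, with a difference of -1.45 without air control 1, -1.04 without air control 4, -1.36 without cannabis 2, -1.60 without cannabis 3 and -1.11 without cannabis 5. It held without each of the other 3. The edgeR and DESeq2 tests of the recovered reads gave -1.38 and -1.46 on the log2 scale, and neither called the site at P under 0.01.

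The extended exonic Ywhab site 4 rested on few reads, 14, 4, 14 and 29 in air control 1 to 4 and 1, 10, 4 and 0 in cannabis 1, 2, 3 and 5. As normalized counts, air control 4 stood at 57.6 against 4.79 to 10.2 in the other controls, and cannabis 2 at 6.64 exceeded air control 2. The log2 difference was -2.22 ± 0.71 in limma (95% interval -3.69 to -0.75, unadjusted P = 0.00492, exact permutation P = 0.0571). The call was lost when air control 1, air control 4, cannabis 1 or cannabis 5 was left out, with differences of -2.33, -1.53, -2.07 and -1.68. It held without each of the other 4 libraries, at -2.36 to -2.66, and in edgeR (-2.50) and DESeq2 (-2.70) on the recovered reads. With the percentage of reads without a symbol as a covariate the difference was -1.57, which was not called. A count of 3 reads, the limit that a count of 0 allows for counting error alone, equals 2.30 normalized counts in cannabis 5.

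This site was a small part of Ywhab, at 2.64% ± 3.23 of the gene in the controls and 0.360% ± 0.363 in the cannabis rats (limma P = 0.0237, exact permutation P = 0.0571, not called). The distal Ywhab site 1 had 738, 809, 645 and 663 normalized counts in the controls and 601, 723, 914 and 918 in the cannabis rats, with both the lowest and the highest value among the cannabis rats. Its log2 difference was 0.13 ± 0.23 (exact permutation P = 0.400). Its share was 89.3% ± 3.16 in the controls and 93.7% ± 2.85 in the cannabis rats, which was not called (limma P = 0.0361, exact permutation P = 0.114).

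Ywhaq divided between an exonic and a distal end that lie 606 nt apart. The exonic site 1 was even in the controls, at 554, 612, 548 and 574 normalized counts, and uneven in the cannabis rats, at 543, 953, 602 and 406 (log2 difference 0.06 ± 0.26, exact permutation P = 0.8286). The distal site 2 had 257, 341, 373 and 71.5 in the controls and 143, 347, 349 and 244 in the cannabis rats (log2 difference 0.21 ± 0.42, exact permutation P = 0.8286). The distal share was 29.7%, 34.3%, 38.4% and 10.4% in the controls and 19.8%, 25.2%, 35.0% and 35.2% in the cannabis rats. Air control 4 and cannabis 1 were lowest, the same libraries that were highest for the Ywhaz and Ywhae totals, and the groups overlapped (exact permutation P = 0.914). Air control 4 had 36 reads on this site, the fewest of the 8 libraries.

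The minor ends of Ywhag and Ywhah are among the sites that are summarised together. Ywhag site 1 had 2293, 2089, 3528 and 2204 normalized counts in the controls and 3179, 3078, 1901 and 3188 in the cannabis rats, with a log2 difference of 0.17 ± 0.21 (exact permutation P = 0.486). Ywhah site 1 had 651, 454, 407 and 589.8 in the controls and 448, 466, 322 and 885 in the cannabis rats, with a log2 difference of -0.06 ± 0.29 (exact permutation P = 0.943). Cannabis 5 was the highest Ywhah library and cannabis 3 the lowest, so the cannabis rats spanned the controls.

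The other 30 sites of the family held 1.91% of its reads. Their mean was 1.55 to 35.4 normalized counts, 27 of them were under 10, and 16 had a library without a read. Their log2 differences ran from -1.02 to 0.84, with 9 above 0 and 21 below, and the smallest limma P was 0.217. No library had more than 92 reads on one of them, and changes at these sites could have been missed. The smallest change that would have been called was not computed.

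**Figure D4:**
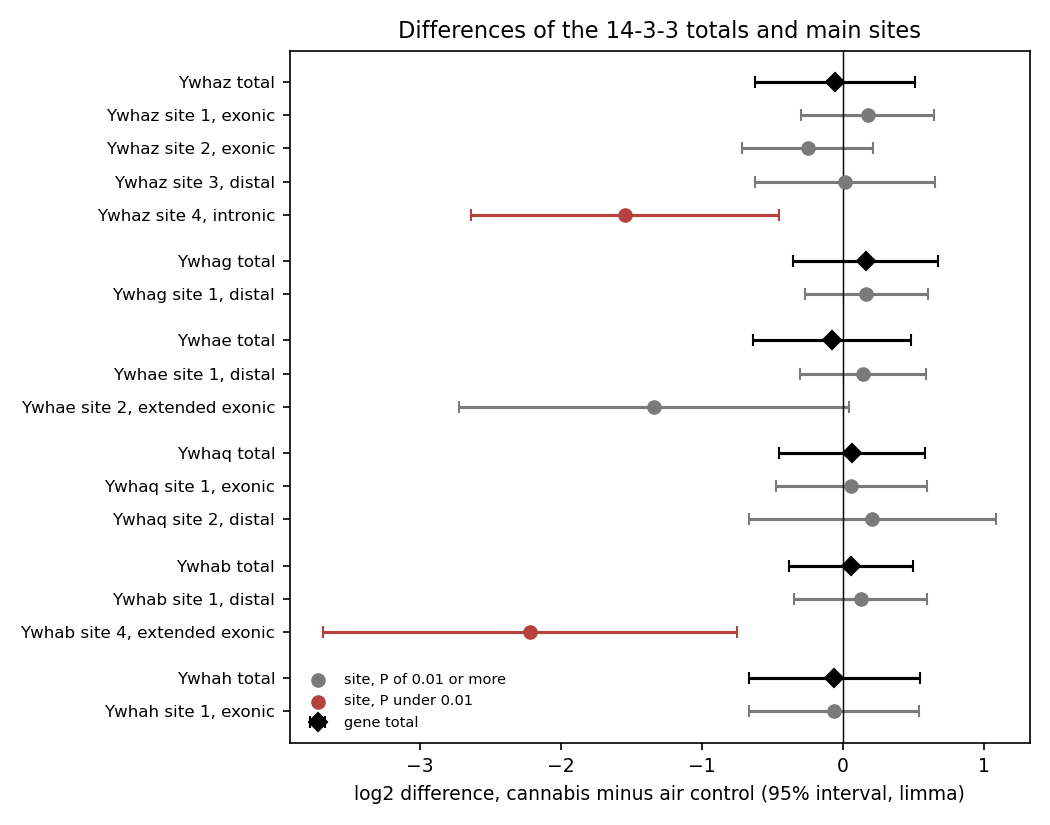
Log2 differences between cannabis and air control (horizontal axis) of the gene totals (diamonds) and the 12 sites described singly (circles), with 95% intervals from limma (n = 4 per group). Ywhaz site 4 at -1.55 and Ywhab site 4 at -2.22 have unadjusted P under 0.01, and the intervals of all 6 totals include 0.

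Known partners of 14-3-3 proteins and the kinases that make their binding sites were read as gene totals in 4 lists. Of 59 listed genes 56 were present, and 1 was called, lower in the cannabis rats, beside 0.278% of all gene totals called and 0.178% called lower. The signalling partners include Raf and Rab-GTPase regulators, and 0 of 18 were called (limma, smallest unadjusted P = 0.272), with a median difference of 0.06. Tbc1d4, a Rab regulator of glucose transporter traffic, was 14.01 ± 2.45 normalized counts in the controls and 18.2 ± 1.61 in the cannabis rats (log2 difference 0.37, exact permutation P = 0.0571). Pfkfb2, which makes the glycolytic activator fructose-2,6-bisphosphate, was 8.25 ± 4.76 and 11.2 ± 4.73 (exact permutation P = 0.486).

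The nuclear partners are transcription factors, histone deacetylases and cell cycle phosphatases that 14-3-3 proteins hold in the cytoplasm, and 0 of 13 were called (limma, smallest unadjusted P = 0.340), with a median of -0.01. Hdac7 was 183 ± 48.1 in the controls and 232 ± 94.3 in the cannabis rats, and Foxo4 was 93.6 ± 12.1 and 110.0 ± 21.3. The kinase list, which includes protein kinase A and AMP-activated kinase genes, had 0 of 14 called in limma, 0 with an unadjusted P under 0.05, and a median of 0.02. Prkaca, a catalytic subunit of protein kinase A, was 37.7 ± 31.0 in the controls and 72.5 ± 64.8 in the cannabis rats.

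The neuronal partners had 1 of 11 called and a median of -0.03. Th, which encodes tyrosine hydroxylase, the rate-limiting enzyme of dopamine synthesis, was 305 ± 46.6 normalized counts in the controls and 117 ± 42.9 in the cannabis rats, without overlap. Its log2 difference was -1.43 ± 0.26 (limma P = 9.28e-05, Benjamini-Hochberg adjusted P = 0.557; exact permutation P = 0.0286, the smallest that 4 against 4 rats allow). The study also named Th from these libraries, so the value is no independent evidence of its direction. By RT-qPCR in a separate cohort of rats, the study reported no significant change of TH abundance. Tph2, the tryptophan hydroxylase of serotonin neurons, was 12.9 ± 5.94 in the controls and 16.4 ± 0.896 in the cannabis rats (exact permutation P = 0.343).

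The genes whose totals varied most like each member were sought among 3653 genes with a mean total of at least 100 normalized counts. The measure, as a description, was Pearson's r of log2 totals over 8 libraries that differ in depth and composition. Whether the highest r of so many genes over 8 libraries exceeds chance was not tested. The nearest genes were Rere (0.986) and Hspa4l (0.921) for Ywhab, Abcf1 (0.980) and Syngr1 (0.962) for Ywhae, and Dpm2 (0.974) and Rhov (0.958) for Ywhag. For Ywhah they were Aprt (0.952) and Nme2 (0.947), for Ywhaq Isca1 (0.974) and Fubp1 (0.969), and for Ywhaz Kctd15 (0.973) and Slc35e3 (0.971). No member of the family was among the nearest genes of another. Between members, r ran from -0.883 for Ywhae and Ywhaq to 0.851 for Ywhae and Ywhaz.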

How the data were processed

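Per the labels and the study's methods, the authors filtered the reads, trimmed leading Ts, mapped them with TMAP 3.4.1 to Rnor_6.0 (NCBI annotation release 106), clustered ends within 24 nt into strand-specific sites, kept sites with at least 16 reads over all libraries and assigned genes with Cuffcompare 2.2.1. The deposited values are a signal of normalized counts, reads divided by a DESeq2 size factor, in 1 table per library. Whole reads were recovered from 100% of the values, within 0.00012 reads. Rows were joined by order, 0 columns were left unused, and positions were matched by symbol and by the values of all 8 libraries for the 12 sites described singly.

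The fits used limma 3.58.1 (R 4.3.3) with a mean-variance trend and a pseudocount of 1, without covariates, on 98356 sites, 18003 totals and 26629 shares of genes with a mean total of at least 100 normalized counts. Groups came from the sample titles. P-values measure the spread between rats. Single values had two-sided exact permutation tests (smallest P 0.0286). These used the log2 scale for counts and totals and percentages for shares, whereas limma used log2 shares. Sites were described singly if they had the most reads of their gene, at least 10% of it, or P under 0.01, and from each list the 2 genes with the smallest P. The values of 1 gene under this rule are not reported here. Members and lists were chosen with earlier results of these data known. Alternatives were a replicate block, each library left out, a pseudocount of 0.5 or 5, only features averaging at least 10, equal totals, no trend, shares in percent, and edgeR 4.0.16 and DESeq2 1.42.0 on the recovered reads. The scripts were tested on simulated data. The rest was done in Python 3.11.15 with scipy 1.17.1, pandas 2.3.3, matplotlib 3.10.9 and numpy 2.4.6. Feeding and RT-qPCR were not analysed here.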

Additional observations from a re-analysis of the deposited data

Results flagged for a closer look

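In 13 of 60 groups of 4 libraries, the highest or lowest library stood apart from the other 3, with a gap above Dixon's 95% critical value for its share of the group's range, which chance gives in about 1 in 20 groups. The groups are not independent, since totals, counts and shares of a gene use the same reads.

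Air control 4 stood above the other controls for the Ywhaz total (gap of 0.831 of the range), Ywhaz site 1 (0.982), and the count (0.897) and share (0.885) of Ywhab site 4. Air control 3 stood above the other controls for the Ywhag total (0.848) and Ywhag site 1 (0.858).

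Cannabis 3 stood below the other cannabis rats for the Ywhag total (0.909) and Ywhag site 1 (0.915), and above them for Ywhaz site 2 (0.912). Cannabis 1 stood above the others for Ywhaz site 3 (0.912) and for the count (0.899) and share (0.896) of Ywhae site 2, and below them for the share of Ywhae site 1 (0.914).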

How the results depend on the processing

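Of the 6 gene totals, 0 were called at P under 0.01 in limma and under every alternative, edgeR and DESeq2 included. The 2 called sites became 0 with the replicate block, a mean of at least 10, no trend, only the 5 libraries with under 15% of reads without a symbol, or that percentage as a covariate (the last 2 chosen after seeing the data), and 1 with a pseudocount of 0.5, edgeR or DESeq2. Leaving out single libraries gave 0 to 3 called sites, 0 to 2 called shares against 0, and 3 to 4 pairs of neighbouring totals at an exact P under 0.05 before adjustment against 4 (the last added after seeing the data).

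The labels do not say what the replicate numbers mean. Same-numbered rats correlated at -0.158, 0.043 and -0.040 in their deviations from the group means, and differently numbered rats at -0.201 to 0.289. So few pairs cannot decide whether the numbers mark something that the rats shared. With the replicate block, 3 shares were called, Ywhae site 2 at -0.90 and Ywhaq site 1 at 0.17 and site 2 at -0.39. The block put the counts of Ywhaz site 4 at -0.60 and Ywhab site 4 at -0.9998, neither called.

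Apart from the blocked Ywhaq shares, no difference that changed sign was called. The block gave -0.029 for the Ywhab, 0.042 for the Ywhae and 0.16 for the Ywhaz total, and -0.30 for the count of Ywhaq site 2. The 5 libraries gave 0.092, -0.031, 0.26, -0.0011 and 0.11 for the Ywhae, Ywhag, Ywhah, Ywhaq and Ywhaz totals, -0.034 for Ywhag site 1, 0.25 for Ywhah site 1, -0.20 for Ywhaq site 2 (count and share) and 0.090 for the share of Ywhaq site 1. The covariate gave -0.0075, 0.20, -0.066, -0.098 and 0.19 for the Ywhab, Ywhae, Ywhag, Ywhaq and Ywhaz totals, -0.064 for Ywhag site 1, -0.43 for the count and -0.33 for the share of Ywhaq site 2, and 0.16 for the share of Ywhaq site 1. Ywhah site 1 became 0.069 in edgeR and 0.015 in DESeq2, and Ywhaz site 3 -0.0041 with equal totals, -0.030 in edgeR and -0.094 in DESeq2. Without their intronic or extended exonic site, the totals of Ywhaz and Ywhae differed by 0.080 and 0.14.

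Leaving out single libraries, the totals ran from -0.037 to 0.20 for Ywhab, -0.24 to 0.099 for Ywhae, -0.33 to 0.15 for Ywhah, -0.13 to 0.19 for Ywhaq and -0.19 to 0.18 for Ywhaz. Counts ran from -0.34 to 0.14 for Ywhah site 1, -0.16 to 0.25 and -0.33 to 0.49 for Ywhaq sites 1 and 2, and -0.19 to 0.35 for Ywhaz site 3. Shares ran from -0.075 to 0.11 and -0.28 to 0.35 for Ywhaq sites 1 and 2, and -0.024 to 0.17 for Ywhaz site 3. The cause was not tested.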
